A study of Mus musculus with 18 samples.

Results

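Libraries of regulatory T (Treg) cells from peripheral blood were compared with those from spleen. The genes compared had a mean over the 3 spleen libraries of at least 10 TPM (transcripts per 1000000 transcripts). This floor kept 8311 of the 55487 genes in the deposited tables, called spleen-expressed genes here. The name refers to the libraries. Of the markers of other cells, 15 of 20 neutrophil and monocyte, 9 of 10 B cell and 4 of 6 plasma cell genes passed. The comparison used 6 of the 18 libraries directly, 3 of blood and 3 of spleen. Poly(A) RNA was measured by sequencing in CD4-positive, Foxp3-positive Treg cells that had been freshly prepared from untreated, wild-type mice. The study holds 3 libraries for each of 6 sites: blood, bone marrow, lung, liver, lymph node and spleen. The labels do not give the sorting gates, the sex or age of the mice, whether animals were pooled, or whether the libraries of a group came from separate animals, so a p-value measures only the spread between these libraries, which may be technical.

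Treg cells are T cells that restrain other immune cells, and the transcription factor Foxp3 defines them. Resting Treg cells recirculate: the chemokine receptor Ccr7 helps them enter lymphoid organs from blood, and the receptor S1pr1, whose gene is a target of the factor Klf2, lets them leave again. Signals through the T cell receptor raise inhibitory receptors such as PD-1 (Pdcd1) and costimulatory receptors of the TNF receptor family, and activated Treg cells take on effector genes that are typical of tissues. Spleen holds both resting and activated Treg cells.

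The libraries of blood were not made of T cell RNA alone. The summed TPM of 20 T cell reference genes (the CD3 and T cell receptor constant genes and 13 other T cell genes) was 11661 to 11775 in the spleen libraries and 5278 to 5387 in the blood libraries. The 7 platelet markers summed to 2418 to 2441 TPM in blood and to 8.51 to 10.86 TPM in spleen, where Tubb1 was listed at 0 in all 3 libraries. The 20 neutrophil and monocyte markers summed to 31143 to 31804 TPM in blood, 795 to 977 TPM in spleen, 57.8 to 109 TPM in lymph node and 48960 to 49248 TPM in bone marrow. CD8 T and natural killer markers were also higher in blood (680 to 731 against 124 to 133 TPM), plasma cell markers were lower (836 to 857 against 2042 to 2184 TPM), and all 10 B cell markers were detected at both sites. The 10 B cell markers summed to 1434 to 1497 TPM in blood and 1987 to 2025 TPM in spleen, but of the 9 that were spleen-expressed 1 (Ighm, -1.03) was lower and 1 (Ighd, 0.69) higher on the TPM scale, with a median of 0.16, and 6 were higher on the T cell scale. Mitochondrial ribosomal RNA (mt-Rnr1 and mt-Rnr2) took 2.15% to 2.30% of blood TPM and 0.110% to 0.115% of spleen TPM. The defining Treg genes were present in every library: Foxp3 at 85.40, 88.38 and 92.16 TPM in blood and 131.69, 149.48 and 137.93 TPM in spleen, with Cd3e, Cd4, Il2ra, Ctla4 and Ikzf2 above 50 TPM in all 6.

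A TPM value is a share of a library's RNA, so abundant RNA from other cells lowers every T cell gene. Each difference is therefore given on 2 scales. The TPM scale takes the values as deposited. On the T cell scale each library was multiplied by 1 factor, above 1 for blood and 0.831 to 0.846 for spleen. The factor made the geometric mean of the 20 reference genes equal in all libraries. After this scaling 6 of the 20 were still higher and 9 lower in blood (limma adjusted p under 0.05). Their log2 fold changes on the TPM scale ranged from -1.71 to 0.04. The p-values on the T cell scale leave this scatter of the reference genes out of account. The change of scale moved the median log2 fold change of all 16694 tested genes from 0.00 to 0.79, and that of the spleen-expressed genes from -0.12 to 0.84. A gene lower in blood on both scales was lower than its share of the library and lower than the T cell genes as a set. In these bulk libraries fewer cells of a type and less RNA per cell cannot be told apart. RNA of other cells adds to a gene on either scale, in blood and in spleen libraries. Its part in the genes higher in blood, and in those lower in blood, was not tested.

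The floor itself was drawn through a continuous range of values, with 240 genes at 10 to 11 TPM and 270 at 9 to 10 TPM. Just inside lay Slc4a8, with spleen values of 12.78, 11.29 and 5.94 TPM and blood values of 3.94, 3.14 and 4.06 TPM. Just outside lay Zfp518a, with 9.94, 9.92 and 10.13 TPM in spleen and 19.33, 21.41 and 19.41 TPM in blood. In 589 of the 8311 genes at least 1 spleen library lay under 10 TPM. Because the floor used spleen values, which also enter the difference, the split between genes higher and lower in blood describes the selected genes and was given no test of its own. Choosing genes by a lymph node mean of at least 10 TPM instead kept 8421 genes.

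With limma on log2(TPM + 1), fitted over all 16694 tested genes and adjusted by the Benjamini-Hochberg method, 1617 of the 8311 spleen-expressed genes (19.5%) were higher in blood on the TPM scale at an adjusted p under 0.05, where 20.1% of all tested genes were. On the same scale 2104 (25.3%) were lower, where 15.3% of all tested genes were. On the T cell scale 6145 (73.9%) were higher and 187 (2.25%) lower, beside 57.7% and 2.36% of all tested genes. All 1617 genes higher on the TPM scale were also higher on the T cell scale. All 187 lower on the T cell scale were also lower on the TPM scale. These sets were called on both scales (20.1% and 2.34% of all tested genes). The factors raise blood values and lower spleen values, so the direction of this overlap was fixed by the scaling. A call on both scales adds little to a higher call on the TPM scale or a lower call on the T cell scale. Of the other genes lower on the TPM scale, 923 were higher on the T cell scale and 994 were called in neither direction on it. A log2 difference of at least 1 on both scales was found for 462 of the 1617 higher and 93 of the 187 lower genes. The share of all tested genes with such a difference was not counted, so these numbers describe the called genes only. The direction split on the TPM scale depended on the scaling: of the called genes, 43.5% were higher in blood with the deposited values, 55.4% with the median log ratio of the spleen-expressed genes set to 0 and 29.1% with abundant RNA classes removed. With genes chosen by the lymph node floor, 1655 were higher and 141 lower on both scales.

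**Figure D1:**
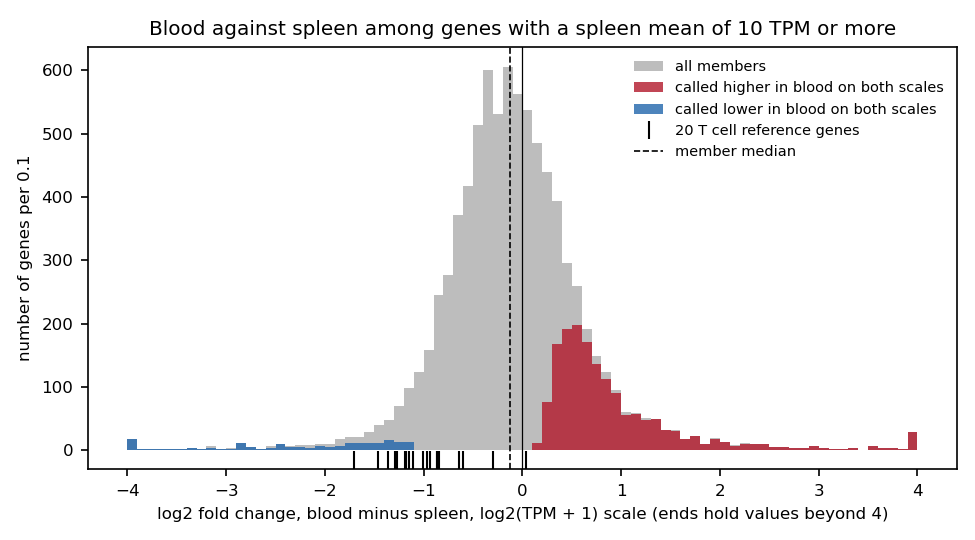
Histogram of the log2 fold change, blood minus spleen on the log2(TPM + 1) scale, of the 8311 spleen-expressed genes (grey), with the 1617 genes called higher (red) and the 187 called lower (blue) in blood on both scales. The dashed line is the median of -0.12, and the ticks at the bottom are the 20 T cell reference genes, whose median of -1.06 lies left of most spleen-expressed genes.

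The 3 blood libraries were close to each other, with a median coefficient of variation of 6.95% over the spleen-expressed genes, against 10.4% among the spleen libraries. The log2 fold changes of these genes had a median SE of 0.164, against 0.254 over all tested genes. Within blood the rank correlation of libraries across these genes was 0.985 to 0.986, within spleen 0.949 to 0.950 and between the sites 0.825 to 0.839; genes are not independent replicates, and these values describe the libraries only.

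Nearly the whole Treg core was lower in blood as a share of the library, while Foxp3 itself was not lower relative to T cell genes. All 18 genes of this list were spleen-expressed. On the TPM scale 17 were lower and 1, Entpd1, was higher, with a median of -0.74 beside -0.12 for all spleen-expressed genes. The list median on the T cell scale was 0.24, beside 0.84, and the list divided into 8 genes higher, 7 lower and 3 called in neither direction. To be set beside this and every later list, 25.3% of all spleen-expressed genes were lower and 19.5% higher on the TPM scale. The shares on the T cell scale were 2.25% and 73.9%. Foxp3 was lower by the TPM scale, with a log2 fold change of -0.65 ± 0.07 (SE, limma adjusted p = 1.82e-06), and higher by the T cell scale, at 0.34 ± 0.07 (adjusted p = 0.000421). Ctla4, the inhibitory receptor that competes with Cd28, behaved alike, with 141.48, 132.35 and 127.77 TPM in blood and 210.14, 187.23 and 204.74 TPM in spleen, and log2 fold changes of -0.58 and 0.41 on the 2 scales. Il2ra, Il2rb, Lrrc32, Capg and Socs2 were likewise lower on the TPM scale and higher on the T cell scale. The TPM calls of 3 of these rested on single libraries: Il2ra had an adjusted p of 0.0507 without spleen library 1, Socs2 of 0.0708 without blood library 2 and of 0.0501 without spleen library 1, and Lrrc32 of 0.0543 to 0.13 without any 1 of blood libraries 1 and 2 and spleen libraries 2 and 3.

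The 7 core genes lower on both scales were Tnfrsf9, Tnfrsf4, Izumo1r, Tnfrsf18, Itgae, Ikzf2 and Nt5e. Izumo1r (folate receptor 4), a surface protein of Treg and anergic T cells, was measured at 124.12, 142.06 and 133.10 TPM in blood and at 694.06, 733.76 and 661.66 TPM in spleen. The spleen mean was 5.23 times the blood mean, with log2 fold changes of -2.38 ± 0.13 (SE) on the TPM scale and -1.39 ± 0.13 on the T cell scale (limma adjusted p = 7.04e-10 and 9.84e-08). Its mean was 626.7 TPM in lymph node and 178.1 TPM in bone marrow, so blood was nearer to bone marrow than to either lymphoid organ. Ikzf2 (Helios), a transcription factor of Treg cells, was at 56.35, 52.95 and 53.46 TPM in blood and 124.10, 135.70 and 124.23 TPM in spleen. On the T cell scale its log2 fold change was -0.24 (adjusted p = 0.0176), and the call ended without blood library 2, blood library 3 or spleen library 2 (adjusted p = 0.0591, 0.0511 and 0.0695) or with the 7 CD3 and receptor constant genes as reference (-0.09, adjusted p = 0.344). The T cell scale call of Nt5e, at -0.22, also ended with that reference (-0.07, adjusted p = 0.356), and that of Itgae, at -0.46, ended with only the 6 blood and spleen libraries fitted (adjusted p = 0.0595). Entpd1 (CD39), an enzyme that removes extracellular ATP, went the other way, with 73.72, 86.92 and 74.97 TPM in blood and 15.54, 51.88 and 22.72 TPM in spleen; the groups did not overlap, and spleen library 2 was well above the other spleen libraries. The log2 fold changes of Entpd1 were 1.53 ± 0.32 (SE) and 2.50 (limma adjusted p = 0.00129 and 3.9e-06).

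Inhibitory and costimulatory receptors held some of the lowest values in blood among the lists. Of 14 spleen-expressed receptors, 11 were lower and 1 (Btla) higher on the TPM scale, beside 25.3% and 19.5% of all spleen-expressed genes. Their median was -1.05. On the T cell scale the median was -0.06, a sign that turned positive when only the 7 CD3 and receptor constant genes served as reference. Lower on that scale were 5 receptors (Pdcd1, Lag3, Tigit, Cd83 and Icos) and higher were 6, beside 2.25% and 73.9% of all spleen-expressed genes. The Icos call, at -0.21, ended with the 7-gene reference (-0.06, adjusted p = 0.459), with only the 6 blood and spleen libraries fitted (0.0917) or without blood library 2 or spleen library 1 (adjusted p = 0.0991 and 0.0939). Pdcd1 (PD-1, ENSMUSG00000026285) was at 4.29, 4.64 and 5.06 TPM in the blood libraries and at 112.65, 121.52 and 116.90 TPM in the spleen libraries. The groups were far apart, with a spleen mean 25.1 times the blood mean and log2 fold changes of -4.38 ± 0.07 (SE) and -3.50 ± 0.07 on the TPM and T cell scales (limma adjusted p = 1.43e-15 and 4.21e-15). Blood was the lowest of the 6 sites for this gene: the means were 4.66 TPM in blood, 31.9 in bone marrow, 64.9 in lymph node, 117 in spleen, 139.5 in liver and 295 in lung.

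Tigit, an inhibitory receptor for nectin family ligands, was at 16.95, 15.38 and 13.31 TPM in blood and 146.38, 155.75 and 124.79 TPM in spleen. Its mean in spleen was 9.35 times that in blood, and lymph node (145 ± 2.75 TPM, SD, n = 3) and bone marrow (138.5 ± 4.66 TPM) were near spleen, not blood. The log2 fold changes were -3.14 ± 0.10 (SE) and -2.19 ± 0.09 on the 2 scales (limma adjusted p = 1.71e-12 and 1.85e-11). Lag3, a receptor for class II MHC, was at 2.26, 1.44 and 2.96 TPM in blood and 33.68, 29.03 and 27.35 TPM in spleen. Here bone marrow (6.46 ± 0.339 TPM), lung (4.96 ± 1.45 TPM) and liver (9.84 ± 1.93 TPM) were also low, and lymph node was highest at 83.1 ± 1.28 TPM. Btla, an inhibitory receptor of resting lymphocytes that B cells also carry, was higher in blood (112.57, 106.19 and 100.68 TPM) than in spleen (75.06, 73.39 and 74.10 TPM), with no overlap.

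The promoters of Pdcd1 and Tigit are shown because these receptors were among the genes furthest below spleen on both scales and are known to be induced through the T cell receptor, a pathway that acts in part through NFAT factors. Each sequence is the 250 bases before the RefSeq start in GRCm38.p6 (mm10), 5′ to 3′ on the gene's strand, and capitals mark the NFAT core, searched as GGAAA on both strands (TTTCC on the reverse strand). Pdcd1 lies on the minus strand at chr1:94052554-94052803 and Tigit on the minus strand at chr16:43664185-43664434.
Pdcd1: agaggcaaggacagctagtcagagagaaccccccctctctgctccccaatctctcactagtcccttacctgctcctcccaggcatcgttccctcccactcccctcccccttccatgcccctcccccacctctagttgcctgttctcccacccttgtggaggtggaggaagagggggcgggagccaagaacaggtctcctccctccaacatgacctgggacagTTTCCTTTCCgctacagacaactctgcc
Tigit: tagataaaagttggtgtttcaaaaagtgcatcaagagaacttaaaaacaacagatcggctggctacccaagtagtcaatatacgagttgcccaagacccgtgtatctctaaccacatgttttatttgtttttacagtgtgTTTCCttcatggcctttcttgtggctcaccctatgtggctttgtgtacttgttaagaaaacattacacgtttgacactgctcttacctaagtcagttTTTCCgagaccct
Each window held 2 cores, in Pdcd1 side by side. Such cores are common: 55.6% of 32851 RefSeq promoter windows of this length held at least 1 and 21.4% at least 2. A match is a description of the letters and shows neither binding nor a cause.

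Within the TNF receptor family 3 costimulatory receptors of T cells were lower and 4 other receptors higher in blood on both scales. Of 13 spleen-expressed members 5 were lower on the TPM scale (Tnfrsf9, Tnfrsf4, Tnfrsf18, Cd27 and Tnfrsf25), beside 25.3% of all spleen-expressed genes. Tnfrsf9, Tnfrsf4 and Tnfrsf18 were also lower on the T cell scale, beside 2.25%. Tnfrsf9 (4-1BB) was at 9.17, 10.05 and 7.72 TPM in blood and 120.92, 116.84 and 104.93 TPM in spleen, 12.7 times as high on average. Tnfrsf4 (OX40) was at 56.66, 55.46 and 54.09 TPM in blood and 326.77, 294.57 and 283.33 TPM in spleen. Their log2 fold changes on the TPM scale were -3.53 ± 0.16 (SE, limma adjusted p = 8.15e-11) and -2.42 ± 0.06 (adjusted p = 5.33e-14), and on the T cell scale -2.60 and -1.44. Tnfrsf18 (GITR) was lower by 1.63 and 0.65 log2 units on the 2 scales, a spleen mean 3.12 times the blood mean. The 4 members higher on both scales, beside 19.5% of all spleen-expressed genes, were Tnfrsf1a, Tnfrsf1b, Fas and Tnfrsf26. The Fas call on the TPM scale ended without blood library 1 or spleen library 2 (limma adjusted p = 0.0704 and 0.0698). Tnfrsf1a, the TNF receptor found on most cell types, had 133.24, 135.47 and 141.59 TPM in blood, 16.64, 24.97 and 24.66 TPM in spleen and a mean of 58.1 TPM in bone marrow. The list median was -0.02 on the TPM scale, positive without spleen library 3 or with the median log ratio set to 0, and 0.96 on the T cell scale.

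**Figure D2:**
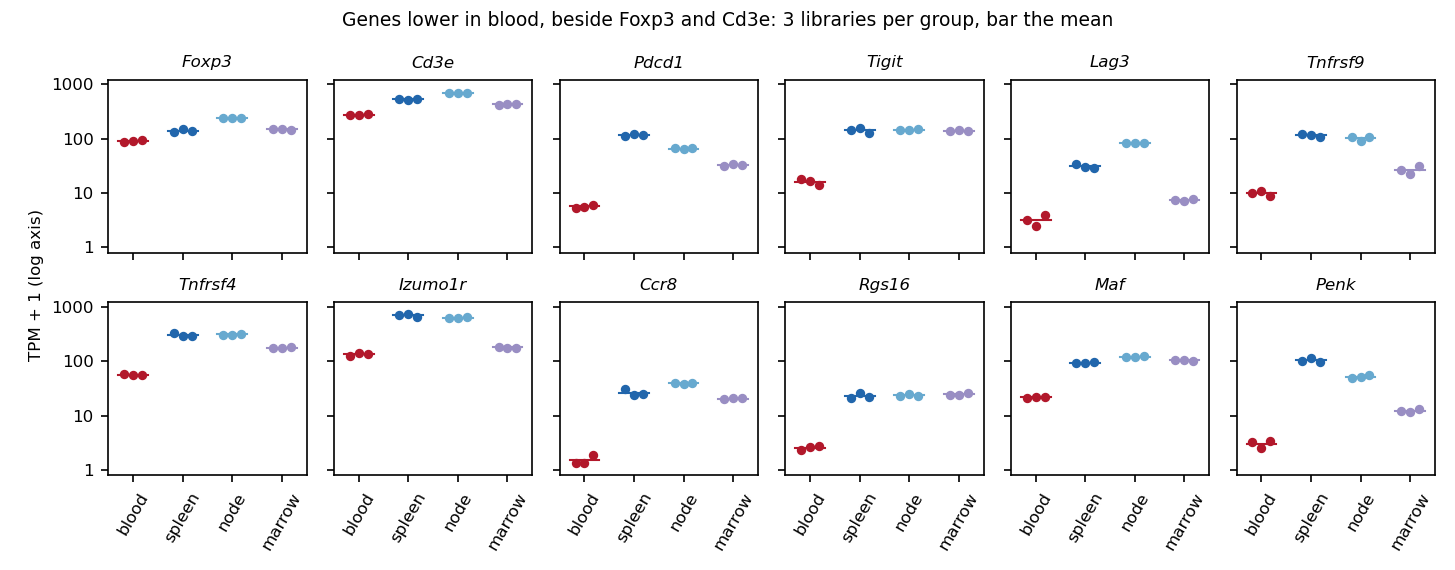
TPM + 1 on a log axis for Foxp3, Cd3e and 10 genes lower in blood, with 1 point per library and a bar at the mean of the 3 libraries of blood, spleen, lymph node (node) and bone marrow (marrow). Foxp3 and Cd3e in blood lie within a factor of about 2 of spleen, while Pdcd1, Ccr8 and Penk lie more than 10 times below it.

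Effector and tissue Treg genes ranged from -5.11 to 3.52 on the TPM scale, the widest range of the 22 lists. Of 15 spleen-expressed members 11 were lower and 2 higher on the TPM scale, beside 25.3% and 19.5% of all spleen-expressed genes. On the T cell scale 7 were lower and 6 higher, beside 2.25% and 73.9%. Il10, Areg, Prdm1, Gzmb and Pparg were under the floor. The medians were -0.92 on the TPM scale and 0.03 on the T cell scale, and the latter was negative without genes high in bone marrow (-0.84), with a floor of 20 TPM (-0.45), without spleen library 2 (-0.12) or without blood library 1 (-0.02). Penk, which encodes the enkephalin precursor, was at 2.25, 1.48 and 2.40 TPM in blood and 98.75, 114.95 and 96.81 TPM in spleen. The spleen mean was 50.7 times the blood mean, the log2 fold changes were -5.11 ± 0.15 (SE) and -4.33 ± 0.17 on the 2 scales (limma adjusted p = 1.29e-12 and 5.09e-12), and bone marrow was between the sites at 11.3 ± 0.839 TPM. Ccr8, a chemokine receptor of activated and tissue Treg cells, was near 0 in blood at 0.33, 0.34 and 0.85 TPM and at 29.95, 22.56 and 23.69 TPM in spleen. Rgs16, a brake on G protein signalling, was at 1.34, 1.59 and 1.76 TPM in blood and 19.80, 25.42 and 21.26 TPM in spleen. For Ccr8 and Rgs16 the log2 fold changes were -4.14 ± 0.16 and -3.17 ± 0.11 on the TPM scale (limma adjusted p = 1.16e-11 and 4.76e-12) and -3.62 and -2.44 on the T cell scale. The transcription factor Maf, chosen for mention after its values were seen, had 20.29, 20.69 and 20.98 TPM in blood and 91.16, 93.24 and 95.99 TPM in spleen, with lymph node (120 TPM) and bone marrow (103 TPM) above the spleen level; its log2 fold changes were -2.12 and -1.16 on the 2 scales.

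The 2 genes of this list that were higher in blood were Cd44 and Fgl2. Fgl2, which encodes a secreted fibrinogen-like protein of Treg cells and macrophages, was at 221.13, 211.54 and 221.42 TPM in blood and 17.71, 20.58 and 16.17 TPM in spleen, with 78.5 TPM in bone marrow and 26.1 TPM in lymph node. Both genes are known in myeloid cells as well, and their rise stood beside the higher myeloid markers of blood and bone marrow; the part of myeloid RNA was not tested. Among 9 spleen-expressed chemokine receptors 6 were lower and 3 higher on the TPM scale, beside 25.3% and 19.5% of all spleen-expressed genes. Ccr8, Cxcr3 and Ccr4 were lower on both scales, and Ccr7, Cxcr4 and Ccr2 were higher on both. Cxcr3, which guides cells to inflamed tissue, was at 20.39, 25.45 and 22.93 TPM in blood and 81.77, 91.99 and 78.96 TPM in spleen. The log2 fold changes of Cxcr3 were -1.84 ± 0.09 (SE) and -0.87 ± 0.08 (limma adjusted p = 1.36e-10 and 1.38e-07). Ccr2, a receptor of monocytes and of some T cells, was at 365.56, 336.73 and 361.99 TPM in blood and 20, 21.76 and 24.63 TPM in spleen.

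Most genes for entry into and exit from lymphoid organs were higher in blood on both scales. All 16 were spleen-expressed; on the TPM scale 12 were higher in blood, 1 (Itgb7) was lower and 3 (Itgal, S1pr4 and Gpr183) were called in neither direction, with a median of 0.72. All 16 were higher on the T cell scale, beside 73.9% of all spleen-expressed genes, and the list median was 1.71, beside 0.84 for the latter. Ccr7, the receptor for the chemokines of lymphoid organs, was at 255.21, 281.48 and 269.72 TPM in blood and 134.68, 144.42 and 126.52 TPM in spleen, with no overlap. Bone marrow had the lowest mean of the 6 sites at 41.9 ± 2.61 TPM, and lung was above blood at 575 ± 8.51 TPM. The log2 fold changes of Ccr7 were 0.99 ± 0.07 (SE) and 1.98 ± 0.07 (limma adjusted p = 1.95e-08 and 1.18e-12). The part of RNA of other cells in them was not tested.

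S1pr1, the exit receptor, differed less: it was at 219.35, 225.70 and 221.13 TPM in blood and 160.51, 170.85 and 161.24 TPM in spleen. The groups did not overlap, and the log2 fold changes were 0.43 ± 0.06 (SE) and 1.42 ± 0.06 (limma adjusted p = 2.63e-05 and 2.4e-11). Integrin genes also differed among themselves. Itga4, the alpha chain of VLA-4 and of the gut homing integrin, was at 203.09, 189.18 and 197.27 TPM in blood and 88.72, 92.47 and 87.16 TPM in spleen, with bone marrow at 98.9 TPM and lymph node at 96.6 TPM. Itgb7, which pairs with it in the gut homing integrin, was lower in blood on the TPM scale at -0.38 and higher on the T cell scale at 0.62. Itgb2 and Selplg, which serve adhesion to vessel walls on T cells and myeloid cells alike, were 1.83 and 1.75 times as high in blood as in spleen by their means. Cd44, the hyaluronan receptor, was at 281.19, 258.38 and 266.53 TPM in blood and 48.45, 55.84 and 54.84 TPM in spleen, with 124 TPM in bone marrow. Itgb1 was no longer called on the TPM scale when abundant RNA classes were removed (0.11, adjusted p = 0.157).

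Other genes of the list were as high or higher in bone marrow in TPM, an order that can differ on the T cell scale. Klf2, the transcription factor upstream of S1pr1, was at 604.88, 604.45 and 671.35 TPM in blood and 199.87, 217.17 and 193.31 TPM in spleen, and its mean in bone marrow was 776 ± 12.9 TPM. Cxcr4, the receptor that retains cells in bone marrow, was at 337.81, 354.13 and 356.26 TPM in blood, 90.29, 98.03 and 84.12 TPM in spleen and 620 ± 17.7 TPM on average in bone marrow. Cd69, which opposes S1pr1, was at 149.29, 133.59 and 138.59 TPM in blood, 85.16, 91.93 and 91.28 TPM in spleen and 259 ± 5.50 TPM in bone marrow. In all 3 the blood and spleen libraries did not overlap. When genes with a bone marrow mean of more than 2 times their lymph node mean were left out, a choice made after seeing the data, 12 of the 16 genes stayed and their median was 0.72 on the TPM scale and 1.71 on the T cell scale.

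**Figure D3:**
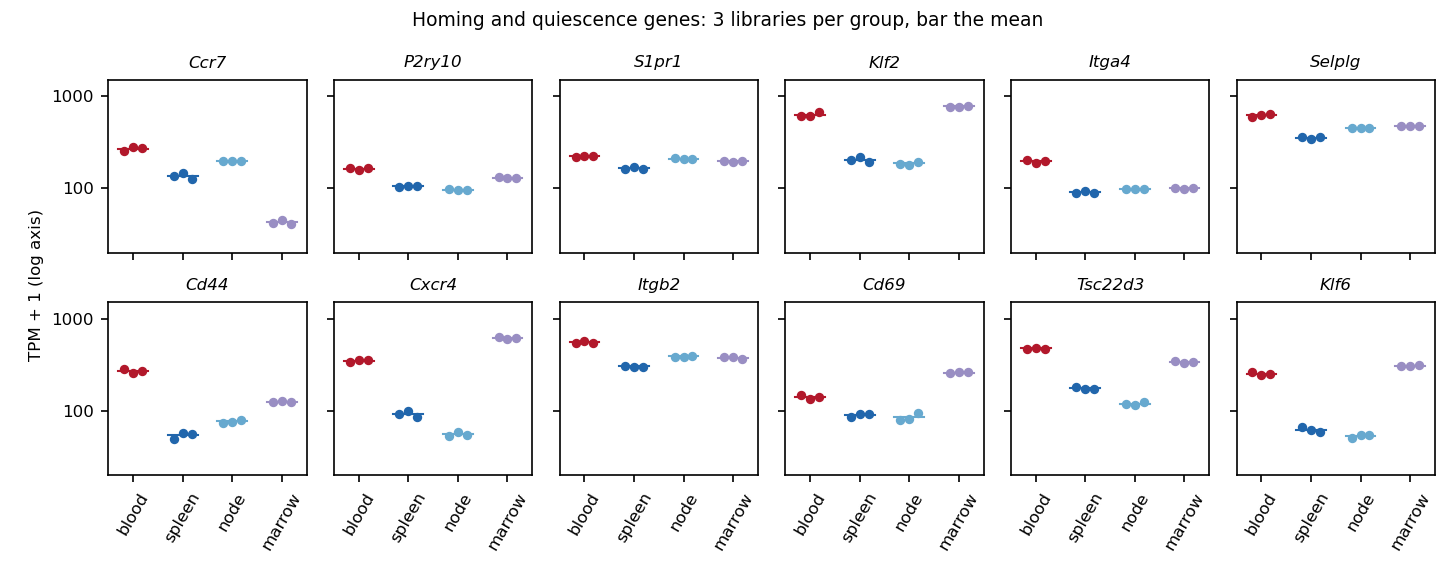
TPM + 1 on a log axis for 10 entry and exit genes and the quiescence genes Tsc22d3 and Klf6, with 1 point per library and a bar at the mean of the 3 libraries. Blood lies above spleen in every panel. In TPM, Ccr7, Itga4, Selplg and Itgb2 are lower in bone marrow (marrow) than in blood, while Klf2, Cxcr4, Cd69 and Klf6 are higher. The order of blood and bone marrow can differ on the T cell scale.

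Resting T cell genes were divided. Of 16, 9 were higher in blood on the TPM scale, among them Klf2 and Ccr7. The 5 lower ones were Id3, Myb, Tcf7, Dusp10 and Foxo1, and the list median was 0.39. On the T cell scale 14 were higher, none lower, and the median was 1.36. For all spleen-expressed genes the T cell scale median was 0.84, and 73.9% were higher. The TPM calls of Dusp10 (without blood library 3 or spleen library 1 or 2, adjusted p = 0.0655 to 0.104) and Foxo1 (without blood library 2 or spleen library 1 or 3, 0.0514 to 0.0577) rested on single libraries. Id3, an inhibitor of E protein factors, was at 24.30, 28.09 and 28.11 TPM in blood and 66.53, 64.92 and 67.86 TPM in spleen. Its log2 fold change was -1.28 ± 0.16 (SE, limma adjusted p = 8.54e-06) on the TPM scale and -0.31 on the T cell scale, where it missed the threshold (adjusted p = 0.0934). The regulators of quiescence and RNA decay had the highest list medians, 0.96 and 1.95. Of these 13 genes 9 were higher in blood on both scales, and Ddit4 was the only 1 lower on both. Klf6, a zinc finger factor, was at 263.28, 244.20 and 251.44 TPM in blood and 65.16, 60.88 and 57.75 TPM in spleen. Tsc22d3 (GILZ), a glucocorticoid-induced factor, was at 469.35, 483.97 and 472.26 TPM in blood and 181.49, 171.66 and 169.60 TPM in spleen. Bone marrow was above spleen for both, at 309 and 340 TPM. Ddit4, an inhibitor of mTORC1 signalling that stress and glucocorticoids induce, was at 37.31, 37.39 and 40.94 TPM in blood and 110.25, 128.11 and 127.82 TPM in spleen, with log2 fold changes of -1.64 ± 0.08 (SE) and -0.66 ± 0.08 (limma adjusted p = 1.6e-10 and 3.14e-06).

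Immediate early genes, which are transcribed within minutes of a signal and also respond to cell handling, did not shift as a block. Of 20 spleen-expressed genes 11 were higher and 5 lower in blood on the TPM scale, with a median of 0.30. On the T cell scale 17 were higher and 2 lower, with a median of 1.26. For all spleen-expressed genes the T cell scale median was 0.84, and 73.9% were higher. Fos (ENSMUSG00000021250) was at 835.85, 852.51 and 843.27 TPM in blood and 142.28, 122.86 and 137.01 TPM in spleen. Its log2 fold changes were 2.65 ± 0.08 (SE) and 3.64 ± 0.08 (limma adjusted p = 1.29e-12 and 1.11e-14). Lymph node was lower still at 48.7 ± 0.455 TPM, and bone marrow was highest at 2198 ± 12.9 TPM. Dusp1, a phosphatase that shuts off MAP kinases, was at 795.85, 807.77 and 833.31 TPM in blood and 148.03, 154.97 and 147.15 TPM in spleen, again with bone marrow above blood at 1201 ± 8.72 TPM. Fosb, Nr4a1, Junb and Zfp36 were chosen for mention after their values were seen, as relatives of these genes. Nr4a1, a nuclear receptor gene widely used as a reporter of T cell receptor signals, was at 609.05, 644.55 and 626.87 TPM in blood and 206.41, 220.73 and 217.50 TPM in spleen, and bone marrow (557 ± 13.2 TPM) was below blood. Fosb, Zfp36 and Junb had blood means 5.41, 2.78 and 1.71 times those of spleen, and each was higher in bone marrow than in blood.

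Nr4a3, a relative of Nr4a1, and Egr2 were the 2 genes of the list lower in blood on both scales. Nr4a3 was at 2.10, 2.28 and 1.98 TPM in blood and 12.17, 12.51 and 11.49 TPM in spleen, with 21.8 ± 2.31 TPM in lymph node. Its log2 fold changes were -2.07 ± 0.12 (SE) and -1.29 ± 0.13 (limma adjusted p = 1.98e-09 and 2.54e-07). Nr4a1 and Nr4a3 thus differed from spleen in opposite directions in the same blood libraries. Egr2, a zinc finger factor induced by T cell receptor signals, was at 7.22, 5.92 and 7.08 TPM in blood and 21.68, 21.69 and 18.46 TPM in spleen. Its log2 fold change was -1.48 ± 0.21 on the TPM scale (limma adjusted p = 2.78e-05) and -0.58 on the T cell scale (adjusted p = 0.0237), and this second call ended without blood library 2, spleen library 1 or spleen library 2 (adjusted p = 0.0885, 0.0662 and 0.0641) or with the 7-gene reference (0.0787). Egr3, chosen after its values were seen, was lower on the TPM scale at -0.86 and called in neither direction on the T cell scale (0.07, adjusted p = 0.809). Genes with a bone marrow mean of more than 2 times their lymph node mean were also left out, a choice made after seeing the data. Then 9 genes of the list stayed, and the median became -0.41 on the TPM scale and 0.58 on the T cell scale. The sign of the median changed with this choice on the TPM scale and not on the T cell scale. The part of myeloid RNA and of cell handling was not tested.

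The promoters of 5 of these genes are shown because Nr4a1 and Nr4a3, which hold the same number of the element described here, differed from spleen in opposite directions. CREB and ATF factors bind the cyclic AMP response element, and capitals mark its core, searched as TGACG on both strands (CGTCA on the reverse strand); where the full element TGACGTCA occurs, both overlapping cores are in capitals. The windows are the 250 bases before the RefSeq start in GRCm38.p6, 5′ to 3′ on the gene's strand: Fos chr12:85473640-85473889 (plus strand), Fosb chr7:19310046-19310295 (minus), Dusp1 chr17:26508473-26508722 (minus), Nr4a1 chr15:101266596-101266845 (plus) and Nr4a3 chr4:48045055-48045304 (plus).
Fos: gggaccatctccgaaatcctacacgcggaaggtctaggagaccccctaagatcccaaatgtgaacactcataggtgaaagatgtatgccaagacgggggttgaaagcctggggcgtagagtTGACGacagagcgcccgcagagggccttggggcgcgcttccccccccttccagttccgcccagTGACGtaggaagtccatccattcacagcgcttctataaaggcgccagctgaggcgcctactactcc
Fosb: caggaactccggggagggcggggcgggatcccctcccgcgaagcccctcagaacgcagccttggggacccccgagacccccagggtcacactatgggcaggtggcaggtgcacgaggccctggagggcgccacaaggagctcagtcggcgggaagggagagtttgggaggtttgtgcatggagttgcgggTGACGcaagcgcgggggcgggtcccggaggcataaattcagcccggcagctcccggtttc
Dusp1: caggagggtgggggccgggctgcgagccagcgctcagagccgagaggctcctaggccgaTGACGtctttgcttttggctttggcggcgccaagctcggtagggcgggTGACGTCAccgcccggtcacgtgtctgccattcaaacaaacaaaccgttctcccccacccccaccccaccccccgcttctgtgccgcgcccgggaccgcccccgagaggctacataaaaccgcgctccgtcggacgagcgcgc
Nr4a1: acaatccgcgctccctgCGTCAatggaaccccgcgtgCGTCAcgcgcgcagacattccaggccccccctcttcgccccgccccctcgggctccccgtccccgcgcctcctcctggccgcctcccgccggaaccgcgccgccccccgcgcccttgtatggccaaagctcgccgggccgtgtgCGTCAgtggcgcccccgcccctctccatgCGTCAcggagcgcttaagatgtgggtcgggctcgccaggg
Nr4a3: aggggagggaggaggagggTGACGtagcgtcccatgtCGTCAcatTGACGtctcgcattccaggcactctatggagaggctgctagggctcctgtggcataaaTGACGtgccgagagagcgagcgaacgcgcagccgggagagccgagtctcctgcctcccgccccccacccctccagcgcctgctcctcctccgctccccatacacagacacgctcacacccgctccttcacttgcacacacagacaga
Fos held 2 cores, Fosb 1, Dusp1 3 (including 1 full element), Nr4a1 4 and Nr4a3 4. Of 32851 windows 17.8% held at least 1 core, 3.9% at least 2, 0.7% at least 3, 0.1% at least 4 and 1.5% the full element. These genes are textbook CREB targets, and nothing about binding follows from the letters.

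**Figure D4:**
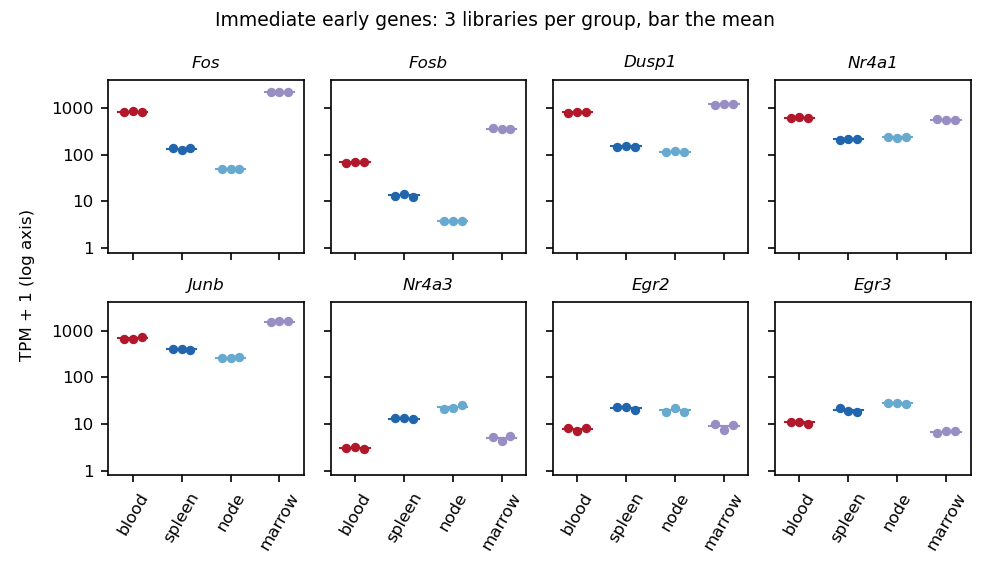
TPM + 1 on a log axis for 8 immediate early genes, with 1 point per library and a bar at the mean of the 3 libraries of blood, spleen, lymph node (node) and bone marrow (marrow). Fos, Fosb, Dusp1, Nr4a1 and Junb are higher in blood than in spleen, and Nr4a3, Egr2 and Egr3 are lower on this scale; Egr3 was called in neither direction on the T cell scale.

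Most cell cycle genes were lower in blood on the TPM scale, to about the same degree as the T cell reference genes. Of 20 spleen-expressed genes 18 were lower on the TPM scale and 1 (Hmgb2) higher, with a median of -1.09, close to that of the T cell reference genes (-1.06). Lower on the T cell scale too were 5 genes (Top2a, Ube2c, Rrm2, Stmn1 and Mcm5), with 7 higher and 8 called in neither direction, and the median of -0.13 turned positive with the 7-gene reference, with a floor of 20 TPM or without genes high in bone marrow. The Hmgb2 call ended with abundant RNA classes removed (0.23, adjusted p = 0.0968). The T cell scale calls ended for Mcm5 with the 7-gene reference (-0.18, adjusted p = 0.189) or without blood library 1 or 3 or spleen library 2 (adjusted p = 0.0647 to 0.0715) and for Ube2c without blood library 2 or spleen library 2 (0.0899 and 0.0567). Top2a, the topoisomerase of dividing cells, was at 6.77, 6.39 and 6.39 TPM in blood and 27.13, 25.11 and 19.04 TPM in spleen, with 116 TPM in bone marrow. Its log2 fold changes were -1.71 ± 0.23 (SE) and -0.80 ± 0.23 (limma adjusted p = 2.25e-05 and 0.00645).

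Most genes for protein synthesis, protein breakdown and respiration were lower in blood on the TPM scale. Many were higher on the T cell scale, as were 73.9% of all spleen-expressed genes, and the T cell scale medians of these lists (0.27 for ribosomal protein genes, 0.59 for translation factors, 0.42 for the proteasome and 0.50 for the respiratory chain) lay below the 0.84 of all spleen-expressed genes. Of 82 spleen-expressed ribosomal protein genes 79 were lower and none higher on the TPM scale (median -0.72), whereas on the T cell scale 58 were higher and 7 lower (median 0.27). Their summed share was 16.0% ± 0.216 of blood TPM and 26.9% ± 0.118 of spleen TPM (SD, n = 3). Translation factor genes followed, with 15 of 18 lower and Eif1 and Tpt1 higher on the TPM scale and 17 higher on the T cell scale; the Tpt1 value of 0.15 turned negative with abundant RNA classes removed (-0.01), and its call ended without any 1 of blood libraries 1 and 3 and spleen libraries 1 and 3 (adjusted p = 0.0542 to 0.121). Of 17 proteasome genes 15 were lower on the TPM scale and 14 higher on the T cell scale, and the immunoproteasome subunits Psmb10 (181.63, 163.59 and 182.63 TPM in blood, 409.00, 453.41 and 410.94 TPM in spleen) and Psmb9 were the lowest on the TPM scale. Of 20 respiratory chain genes 14 were lower and 1 (Cox5a) higher on the TPM scale, against 16 higher on the T cell scale; the Cox5a call ended without any 1 of blood libraries 1 and 3 and spleen libraries 1 and 2 (adjusted p = 0.0913 to 0.122). The GIMAP genes, GTPases of lymphocytes, had 7 of 8 members lower on the TPM scale and 5 higher and 1 (Gimap7, -0.17) lower on the T cell scale; the Gimap7 call ended without any 1 of blood libraries 1 and 3 and spleen libraries 1 and 3 (adjusted p = 0.0728 to 0.148). Of 12 heat shock genes 8 were lower on the TPM scale and 10 higher on the T cell scale, and 1, Hspa1b, was lower on both: 8.15, 9.03 and 9.25 TPM in blood against 36.98, 38.65 and 41.94 TPM in spleen. Hspa1b and its copy Hspa1a are nearly identical, so their separate values are uncertain.

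**Figure D5:**
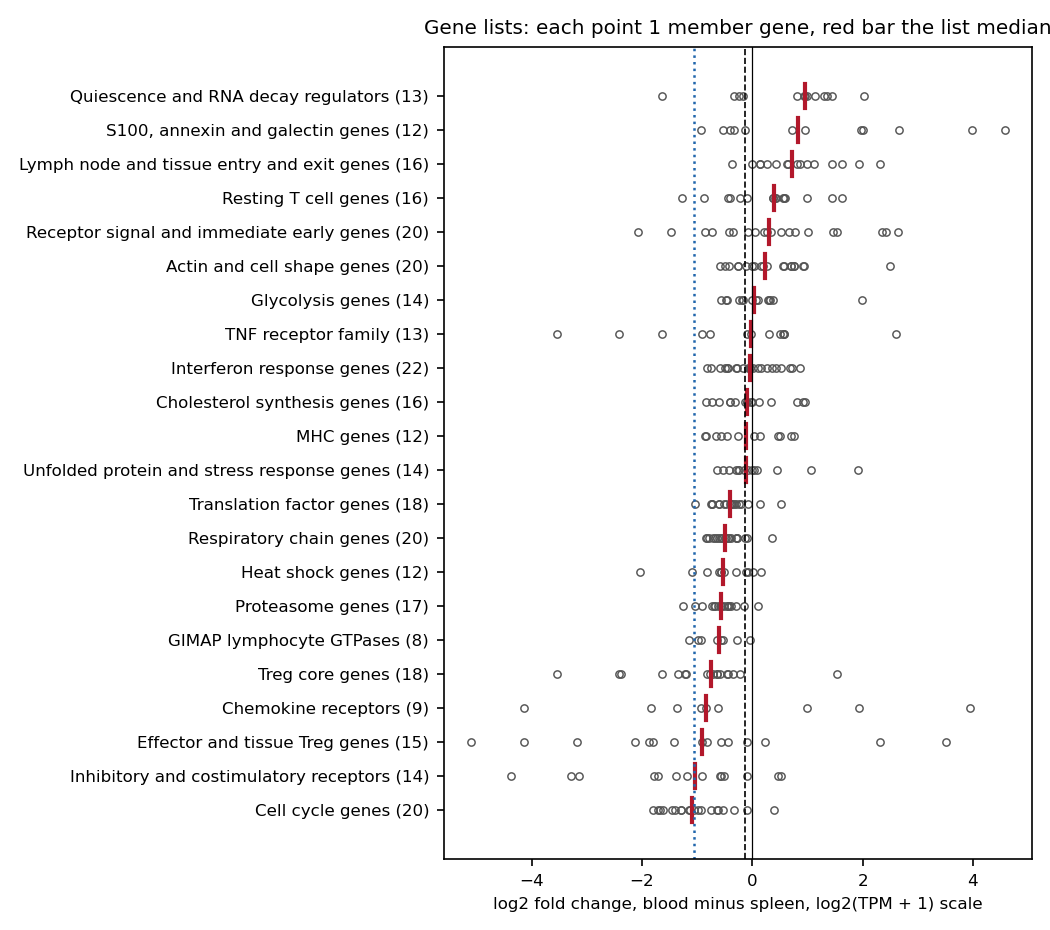
Log2 fold change, blood minus spleen on the log2(TPM + 1) scale, of every spleen-expressed gene in 22 lists, with the number of genes in brackets and the list median as a red bar. The dashed line is the median of all spleen-expressed genes (-0.12) and the dotted blue line that of the T cell reference genes (-1.06); the inhibitory receptor and cell cycle medians lie at the dotted line, and the quiescence, S100 and annexin, and entry and exit medians lie furthest right.

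Other lists stayed near the median of the spleen-expressed genes. Of 22 interferon response genes 5 were higher (Irf7, Ifi209, Ifit3, Ifi203 and Irgm1) and 7 lower on the TPM scale (median -0.04, positive with the median log ratio set to 0) and 20 higher on the T cell scale. Irf7, the factor that amplifies interferon production, was at 114.78, 122.79 and 121.76 TPM in blood and 59.08, 73.53 and 64.28 TPM in spleen, while Isg15 was lower on the TPM scale at -0.75; the Irgm1 call, at 0.27, ended with any 1 library left out (adjusted p = 0.0546 to 0.0916). Glycolysis genes had 4 higher (Slc2a3, Pgam1, Eno1 and Pkm) and 5 lower (Pfkl, Pfkp, Ldha, Gapdh and Pgk1) of 14 on the TPM scale and 14 higher on the T cell scale; their TPM median of 0.03 was negative under quantile normalization, with abundant RNA removed or without blood library 2. The calls of Pkm (0.02, adjusted p = 0.828) and Eno1 (0.08, adjusted p = 0.269) ended under quantile normalization, and those of Pgam1 (0.21, adjusted p = 0.109) and Eno1 (0.14, adjusted p = 0.0788) with abundant RNA removed. The glucose transporter Slc2a3, which neutrophils also express, was highest of the list in fold change, with 139.93, 136.32 and 137.14 TPM in blood, 35.20, 33.60 and 33.40 TPM in spleen and 142 TPM in bone marrow. Of 16 cholesterol synthesis genes 3 were higher and 4 lower (Fdps, Dhcr7, Fdft1 and Cyp51) on the TPM scale, and of 14 unfolded protein response genes 3 were higher (Dnajb9, Xbp1 and Herpud1) and 5 lower (Pdia4, Calr, Manf, Hspa5 and Pdia3). The Dhcr7 call, at -0.74, ended with any 1 library left out (adjusted p = 0.06 to 0.132). So did that of Cyp51 for every library but spleen library 2 (0.0568 to 0.11), that of Manf for every library but spleen library 2 (0.0584 to 0.123), that of Pdia3 for blood libraries 2 and 3 and spleen libraries 2 and 3 (0.077 to 0.126), and, among the glycolysis genes, that of Pgk1 for blood library 1 and spleen library 3 (0.058 and 0.0585). On the TPM scale the cholesterol and unfolded protein medians were -0.10 and -0.11, the former positive with the median log ratio set to 0. On the T cell scale both were 0.87, and 11 and 14 genes were higher. For all spleen-expressed genes the T cell scale median was 0.84, and 73.9% were higher.

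The 12 MHC genes were called in both directions on the TPM scale, and the difference between class I and class II was not tested. The class II genes H2-Aa, H2-Ab1, H2-Eb1 and Cd74 and the light chain gene B2m were higher on the TPM scale. Lower on it were H2-Q7, Tap2, H2-K1, Tap1 and H2-T23. On the T cell scale 11 were higher, beside 73.9% of all spleen-expressed genes. The B2m value of 0.13 was -0.03 with abundant RNA classes removed and was not called without blood library 1 (adjusted p = 0.0716). H2-Aa was at 606.87, 628.01 and 621.00 TPM in blood, 364.05, 385.03 and 355.07 TPM in spleen and 104 TPM on average in lymph node. Class II genes belong to B cells and myeloid cells in mice, and the summed myeloid markers were higher in blood; the part of RNA of these cells was not tested. Actin and cell shape genes had 12 higher and 6 lower of 20 on the TPM scale (median 0.24), beside 19.5% and 25.3% of all spleen-expressed genes. All 20 were higher on the T cell scale, beside 73.9%. Myo1f, a myosin of myeloid cells and natural killer cells, led with 189.06, 219.31 and 195.95 TPM in blood against 36.84, 34.80 and 32.71 TPM in spleen. The S100, annexin and galectin genes had 7 of 12 higher and 4 lower (S100a13, S100a10, Anxa6 and Lgals1) on the TPM scale (median 0.84; -0.37 over the 6 genes left when those high in bone marrow were removed). Anxa1, an annexin abundant in neutrophils and monocytes, was at 289.15, 262.12 and 277.43 TPM in blood, 10.55, 9.92 and 11.11 TPM in spleen and 556 ± 18.5 TPM in bone marrow.

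The spleen floor did not remove genes of other blood cells. Of the 20 neutrophil and monocyte markers 15 passed it, and 13 of these were higher in blood on both scales; none of the 7 platelet markers passed. Il1b and Lyz2 were at 1605.75, 1531.49 and 1589.89 TPM and at 7388.21, 7590.62 and 7428.06 TPM in blood, against 26.92, 27.12 and 13.41 TPM and 133.07, 122.71 and 146.83 TPM in spleen. The genes furthest above spleen needed a lymph node mean of at least 10 TPM and at least 50% of the spleen mean. This condition was set since lymph node libraries held little myeloid RNA. It was met by 7903 spleen-expressed genes, of which 1525 (19.3%) were higher and 124 (1.57%) lower on both scales. Of all tested genes 20.1% and 2.34% were. Leaving out overlapping libraries and the gene classes kept from the rankings left 1468 genes higher and 104 genes lower. The 12 highest were Ctla2a, Tsc22d1, Msrb1, Lgals3, Ccr2, Csf2ra, Ms4a6c, Gsr, Aldh2, Fgl2, Cd9 and Skap2. Ctla2a, an inhibitor of cysteine proteases, was at 2550.17, 2453.44 and 2567.40 TPM in blood and 19.43, 27.88 and 29.56 TPM in spleen. The blood mean was 98.5 times the spleen mean, and the mean was 63.3 TPM in bone marrow, 160 in liver and 175 in lung. Tsc22d1, a regulator of transcription, was at 754.25, 737.80 and 759.11 TPM in blood and 14.24, 20.50 and 17.42 TPM in spleen. Cd9, a tetraspanin abundant in platelets, was at 628.51, 690.79 and 673.66 TPM in blood and 67.40, 69.37 and 58.57 TPM in spleen. Ctla2a, Tsc22d1 and Cd9 were far lower in bone marrow (63.3, 34.2 and 83.0 TPM) than in blood, as were the summed platelet markers (71.1 to 84.6 TPM in bone marrow). Csf2ra, Msrb1, Gsr, Aldh2 and Lgals3 were instead between spleen and blood in bone marrow, at 123, 241, 153, 374 and 163 TPM, where the myeloid markers were high. For these genes the part of platelet and myeloid RNA was not tested.

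The 12 genes furthest below spleen under the same condition were Ccr8, Pdcd1, Hist1h4b, Tnfrsf9, Lag3, Rgs16, Angptl2, Tigit, Sh3gl3, Tox2, Scarna2 and Asb2. Tox2, a relative of the exhaustion factor Tox, was at 2.97, 2.47 and 2.31 TPM in blood and 31.66, 25.93 and 20.33 TPM in spleen, with 20.02 TPM in lymph node and 8.43 TPM in bone marrow. Angptl2, a secreted angiopoietin-like protein, was at 0.73, 0.94 and 0.63 TPM in blood and 11.83, 12.36 and 11.71 TPM in spleen. Asb2, a subunit of a ubiquitin ligase, was at 1.91, 2.98 and 5 TPM in blood and 22.54, 29.16 and 34.95 TPM in spleen. Their log2 fold changes were -2.89 ± 0.17 (SE), -2.88 ± 0.33 and -2.84 ± 0.30 on the TPM scale (limma adjusted p = 1.81e-09, 4.35e-06 and 1.58e-06) and -2.08, -2.28 and -2.01 on the T cell scale. The histone gene Hist1h4b was listed at 0, 0.63 and 0.64 TPM in blood and 28.12, 12.01 and 7.92 TPM in spleen, and its call ended without blood library 1 or spleen library 1 (adjusted p = 0.0669 and 0.0807 on the TPM scale). Without the lymph node condition the lowest were Rnu3b1, Rnu3b3 and Rnu3b4, near-identical copies of the U3 small nucleolar RNA that share reads. Each was listed at 0 in all 3 blood libraries and at 104.23, 56.08 and 82.47 TPM in spleen. Poly(A) RNA was sequenced, and how evenly these libraries capture U3, Scarna2 and histone RNA was not tested. Jchain, the antibody joining chain of plasma cells, was also far lower in blood (4.28, 3.78 and 2.51 against 123.40, 135.52 and 130.84 TPM), beside the lower plasma cell markers.

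Length, base composition and gene class, which the floor did not use, are given here as descriptions of the called genes beside all spleen-expressed genes. Length and GC are those of the longest GENCODE M21 transcript of each gene, which may differ from the transcripts measured. The 1617 genes higher on both scales had a median transcript length of 3896 bases and 46.9% GC, the 187 lower ones 1858.5 bases and 51.1% GC, and all 8311 genes 3152 bases and 49.6% GC. Protein-coding genes made up 97.8%, 76.5% and 93.8% of the 3 sets. Antigen receptor segments, of antibodies and T cell receptors together, numbered 1, 29 and 153 in the 3 sets, and ribosomal protein genes 0, 7 and 82. The part of B cell and plasma cell RNA in the lower set was not tested. By spleen level, the value that the floor did use, the share higher on both scales was nearly flat, at 19.6%, 19.2%, 19.5% and 19.7% for genes at 10 to 20, 20 to 50, 50 to 100 and over 100 TPM, and the share lower on both was 2.44%, 1.83%, 1.90% and 3.30%.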

How the data were processed

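Poly(A) RNA of Treg cells from 6 sites was sequenced in 18 libraries. For each library the authors deposited TPM values of 55487 gene IDs; STAR, RSEM and mm10 are named in the submitters' processing notes, and the annotation, versions and strand setting are not given in the sources used here. TPM has a fixed sum per library and keeps no depth, so the precision rests on the spread between libraries. Symbols came from GENCODE M21, which matched 55141 IDs (346 did not match). The 16694 genes whose mean reached 1 TPM in any of the 6 groups were tested with limma 3.58.1 in R 4.3.3 on log2(TPM + 1), with all 18 libraries, 1 mean per group and moderated variances (trend, robust); adjustment was Benjamini-Hochberg across these 16694 genes. A fold change on this scale understates the change of low genes. The T cell scale divides out the geometric mean of 20 T cell genes. The genes, lists and reference genes were chosen with earlier results of these data known.

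Named genes were the 12 per direction with the largest smaller difference of the 2 scales, called on both, without overlap and with the lymph node condition, the 3 per direction without that condition, and the 2 per direction in each list, with any gene of the Treg core, T cell reference and entry and exit lists; other genes that complete counts of 5 or fewer, and those marked in the text, were chosen after their values were seen. Predicted, Rik-named and mitochondrial genes and receptor segments were left out of the rankings. The fit was also run on simulated data with independent noise and known changes. Those data held no RNA of other cells, so that run does not bear on this limit. Promoters came from RefSeq (GRCm38.p6) and were searched with Python 3.11.15; figures used matplotlib 3.10.9. Alternatives covered the pseudocount, the low-value filter, the scaling, the reference genes, the floor, the libraries fitted, library weights, a replicate block and each blood or spleen library left out. Counts were not analysed here, since the tables give TPM only. Some genes of the lists are counted but not reported by name here.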

Additional observations from a re-analysis of the deposited data

How the results depend on the processing

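Values are TPM, which keep no depth, and with 3 libraries per group an exact permutation test of a single gene could not go below p = 0.1. Under 20 other settings the counts of called genes stayed within 1.5 times the reported ones. Leaving out 1 library gave 1371 to 1456 genes higher in blood on the TPM scale and on both scales, 1711 to 1809 lower on the TPM scale, 5810 to 5922 higher and 159 to 175 lower on the T cell scale, and 159 to 174 lower on both. Of 2 further settings chosen after seeing the data, requiring the lymph node level left 124 genes lower on the T cell scale and 124 on both, from 7903 genes. With libraries of the same number as a replicate block, 1586 genes were higher and 2049 lower on the TPM scale. On the T cell scale the counts were 6123 and 188, and on both scales 1586 and 187. Deviations of same-numbered blood and spleen libraries from their group means were weakly correlated (r = 0.0537, -0.0183 and 0.0199). Deviations from means of 3 libraries cannot show whether same-numbered libraries came from the same animals.

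List medians that changed sign were as follows, and the cause was not tested. On the T cell scale the inhibitory receptors were at 0.0844 with the 7-gene reference and 0.0832 with a floor of 20 TPM or of 10 TPM in each spleen library. The effector genes were at -0.446 with a floor of 20 TPM, -0.838 without genes high in bone marrow, and -0.115 to 0.189 with 1 library left out (-0.115 without spleen library 2 and -0.0217 without blood library 1). The cell cycle genes were at 0.0130 with the 7-gene reference, 0.111 with a floor of 20 TPM and 0.282 without genes high in bone marrow. On the TPM scale, leaving out genes high in bone marrow put the immediate early genes at -0.414 and the S100 list at -0.368. Setting the median log ratio to 0 put the TNF receptors at 0.0933, the interferon genes at 0.0681 and the cholesterol genes at 0.0154. With 1 library left out the TNF receptors were at -0.0329 to 0.0161, the latter without spleen library 3. The glycolysis genes were at -0.113 under quantile normalization, -0.128 with abundant RNA removed and -0.00565 to 0.0567 with 1 library left out, the former without blood library 2. Of the single genes, B2m was at -0.0291 on the TPM scale with abundant RNA removed, Cd2 was at 0.0327 on the T cell scale with the 7-gene reference, Tmsb10 at 0.0196 on the TPM scale under quantile normalization and Tpt1 at -0.0148 with abundant RNA removed. Over 195 named genes on 2 scales, 174 refits lost a call (4 of them with a change of sign), 35 gained 1, 32 changed sign without a call in either fit and 5211 kept both direction and call.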
